A study of Glycine max with 2 samples.

Results

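The intergenic differentially methylated regions (DMRs) of soybean scaffolds 25 to 40 are described here. A DMR was taken when it lay on an unplaced scaffold numbered 25 to 40 and was not listed in the deposited annotation, which gives each DMR overlapping a gene or the 2 kb upstream of one. This rule, which used no methylation value, selected 533 of the 3527 DMRs. They lay on 14 of the 16 scaffolds, and the deposited table held no DMR of any kind on scaffold_29 or scaffold_36. A further 92 DMRs of the same scaffolds were annotated to genes.

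The study compared NJCMS5A, a line with cytoplasmic male sterility, with NJCMS5B, its fertile maintainer. NJCMS5A had been bred from the donor NJCMS1A by repeated backcrossing to Wandou28, the cultivar used as NJCMS5B. Flower buds of different sizes were taken from plants at full bloom and pooled within each line, and 1 whole-genome bisulfite library was sequenced per line. Every value therefore describes a pool of buds of mixed stages. With 1 library per line there was no replicate check, and each test compares the libraries, not the lines.

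In plants, DNA methylation occurs at cytosines in the CG, CHG and CHH contexts. Methylation of all 3 contexts is typical of transposable elements and other repeats, which make up much of the sequence between genes, whereas genes often carry methylation in the CG context alone. Unplaced scaffolds are assembled sequences that could not be put on a chromosome, often because they are rich in repeats. The deposited levels combine the contexts, so the context of a difference was not analysed here.

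Bisulfite converts unmethylated cytosines and leaves methylated ones, and the methylation level of a DMR is the percentage of its cytosine calls that were still read as cytosine. The 533 intergenic DMRs had a median length of 1096 bp (34 to 8991 bp) and held a median of 159 cytosines (10 to 2020). Together they covered 666765 bp. Median depth was 10.9 calls per cytosine in NJCMS5A (5 to 69.8) and 10.6 in NJCMS5B (5 to 50.9), and in 222 DMRs each library reached a depth of 10 or more. Levels are given with 95% Wilson confidence intervals, which cover counting error only, since calls from one read are not independent.

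The DMRs had been called by the authors on the same libraries, so that each had to differ. All 533 passed Fisher's exact test (two-sided, with p-values adjusted by Benjamini-Hochberg over the 3527 DMRs), as did 100% of all DMRs. In a stricter form, in which the calls were scaled down so that a cytosine counted only once, 417 passed (78.2%), against 82.8% of all DMRs. The smallest level difference was 10.03 percentage points and the smallest ratio of the higher to the lower level was 2.003. At such a ratio, a DMR with a lower level of 20% needs a difference of 20 points to be listed. Of the 533, 304 had a ratio of at most 2.5 (57.0%), and lay close to that limit, against 49.3% of all DMRs. Among intergenic DMRs the share was 64.5% on scaffold_21, 65.5% on scaffolds 22 to 24 and 44.8% on scaffolds over 40.

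Hypo-methylation and hyper-methylation were almost equally frequent in these DMRs. In NJCMS5A the level was lower in 272 DMRs (51.0%, 46.8 to 55.3) and higher in 261, whereas 55.8% of all DMRs were lower in NJCMS5A. Among the annotated DMRs of the same scaffolds 58 of 92 were lower in NJCMS5A (63.0%, 52.8 to 72.2), and the share was 54.2% (49.9 to 58.3) in the intergenic DMRs of scaffold_21 and 56.3% (52.1 to 60.5) in those of scaffolds 22 to 24. The intergenic DMRs of scaffolds over 40 had nearly the same share as the 533, with 581 of 1121 lower in NJCMS5A (51.8%, 48.9 to 54.7). These intervals overlap that of the 533 DMRs. The interval of the 311 DMRs of the 20 chromosomes, annotated ones included, did not, with 70.1% (64.8 to 74.9) lower in NJCMS5A.

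The differences in each direction were also of similar size. The 272 hypo-methylated DMRs had a median level of 12.6% in NJCMS5A (quartiles 7.71 and 16.6) and 31.96% in NJCMS5B (22.2 and 39.7). The 261 hyper-methylated DMRs had 32.5% in NJCMS5A (22.4 and 39.4) and 12.1% in NJCMS5B (7.69 and 16.9). The hypo-methylated DMRs covered 341565 bp and the hyper-methylated ones 325200 bp. Summed over all calls of the 533 DMRs, the level was thus 21.01% in NJCMS5A (20.9 to 21.1) and 20.7% in NJCMS5B (20.7 to 20.8), while the annotated DMRs of these scaffolds gave 9.33% in NJCMS5A (9.25 to 9.41) and 13.1% in NJCMS5B (13.0 to 13.2). The unweighted mean over the 533 DMRs was 21.5% in NJCMS5A and 21.8% in NJCMS5B, so that the order of the libraries between genes depended on the weighting. Between genes, increases and decreases thus nearly balanced, whereas the sum over DMRs at genes was lower in NJCMS5A.

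In percentage points, the median difference was larger in intergenic DMRs than in those at genes, as was the level of the less methylated library. The difference had a median of 19.0 percentage points (quartiles 13.9 and 22.9) in the 533 DMRs and 12.2 points in the 92 annotated ones, and the lower level a median of 12.4% and 2.92% in the same order. The ratio of the higher to the lower level had the reverse order, with a median of 2.40 in the 533 DMRs and 6.12 in the annotated ones. A difference of at least 20 points was found in 232 of the 533 (43.5%), against 33.9% of all DMRs and 8.70% of the annotated DMRs of these scaffolds. The annotated DMRs lay on 6 of the 14 scaffolds, and there the gap to the intergenic DMRs was smaller. The 297 intergenic DMRs of those 6 had a median difference of 16.3 points and a median lower level of 10.4%, and 86 of them reached 20 points (29.0%). Differences were smaller in the intergenic DMRs of scaffold_21 (median 14.7 points) and scaffolds 22 to 24 (15.5 points), and larger on scaffolds over 40 (21.3 points). The scaffolds just outside the range, scaffold_24 and scaffold_41, had medians of 16.9 and 18.7 points.

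The 14 scaffolds carried 6 (scaffold_39) to 67 (scaffold_27) of the DMRs, or 3.09 (scaffold_39) to 18.3 (scaffold_31) per 100 kb between the first and the last of them. The share that was lower in NJCMS5A ran from 33.3% on scaffold_34, scaffold_38 and scaffold_39 to 62.8% (47.9 to 75.6) on scaffold_40, where 27 DMRs were lower and 16 higher. On scaffold_33 the balance lay on the other side, with 16 lower and 25 higher (39.0%, 25.7 to 54.3). The 95% interval held 50% on all 14 scaffolds, so a preferred direction was not detectable on any of them at these numbers.

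**Figure D1:**
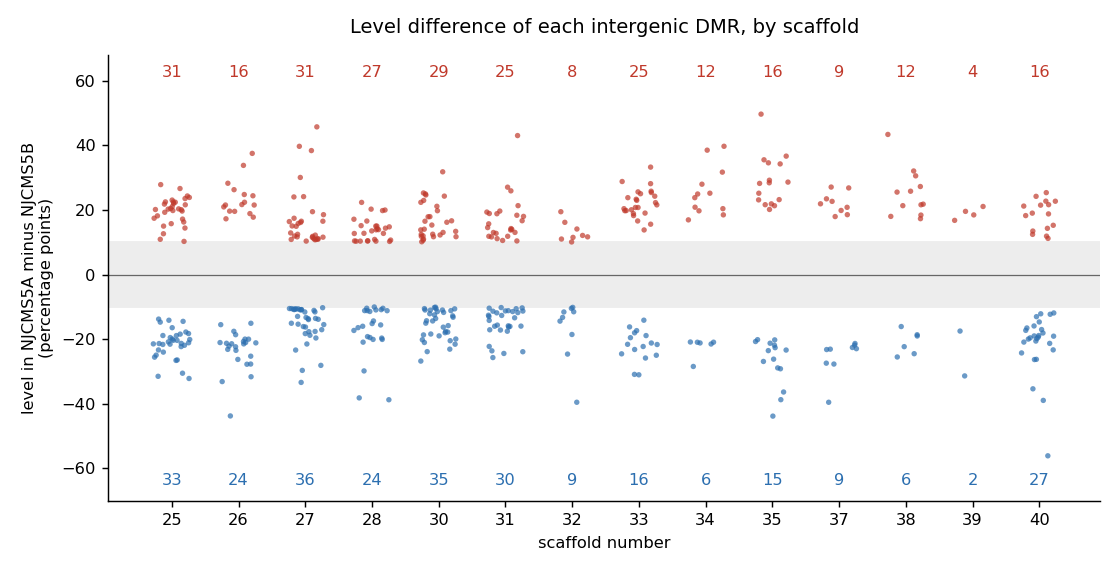
Level in NJCMS5A minus level in NJCMS5B, in percentage points, for each of the 533 intergenic DMRs (points), by scaffold number on the x axis. Red points and numbers are DMRs higher in NJCMS5A, blue ones those lower in NJCMS5A, and the grey band marks differences under 10 points, which no DMR had; on scaffold_35 all 31 DMRs lie at least 20.1 points from 0.

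In the size of the difference, however, the scaffolds separated. The median was 12.1 points on scaffold_32, 13.8 on scaffold_27, 14.2 on scaffold_31, 14.4 on scaffold_28 and 14.7 on scaffold_30. It was 20.4 on scaffold_25, 21.5 on scaffold_26, 21.6 on scaffold_33, 22.1 on scaffold_38, 22.8 on scaffold_37 and 26.2 on scaffold_35, with 19.1 on scaffold_40. At least 20 points were reached by 31 of 31 DMRs on scaffold_35 and by 2 of 17 on scaffold_32. Since DMRs with a ratio under 2 were not listed, a higher level in the less methylated library asks for more points. The median of that lower level was 0.697% on scaffold_32, 5.26% on scaffold_28 and 17.5% on scaffold_35. On these 3 scaffolds the median ratio had the opposite order, with 21.1 on scaffold_32, 4.41 on scaffold_28 and 2.37 on scaffold_35. This order did not hold throughout: with smaller differences than scaffold_35, scaffold_25 had a ratio of 2.26 and scaffold_37 of 2.12. What the ratio limit contributed to the differences between scaffolds was not tested.

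The scaffolds also differed in whether they carried annotated DMRs at all, a division made after the values were seen. Scaffolds 25, 27, 28, 31, 32 and 40 carried the 92 annotated DMRs and 297 of the intergenic ones, and the other 8 scaffolds carried 236 intergenic DMRs and no annotated one. The median higher level of an intergenic DMR was 26.4% on the scaffolds with annotated DMRs and 37.7% on those without, and the median lower level was 10.4% and 14.8% in the same order. Single scaffolds crossed this division. The median higher and lower levels were 35.7% and 15.2% on scaffold_25, which had annotated DMRs, and 25.4% and 9.17% on scaffold_30, which had none. Cytosines of the DMRs were denser on the scaffolds with annotated DMRs, with a median of 17.6 per 100 bp against 13.6. Here too scaffolds crossed, with 13.0 on scaffold_31, which had annotated DMRs, and 17.5 on scaffold_34, which had none. The share lower in NJCMS5A was 53.5% (47.9 to 59.1) with and 47.9% (41.6 to 54.2) without annotated DMRs, and the intervals overlapped.

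**Figure D2:**
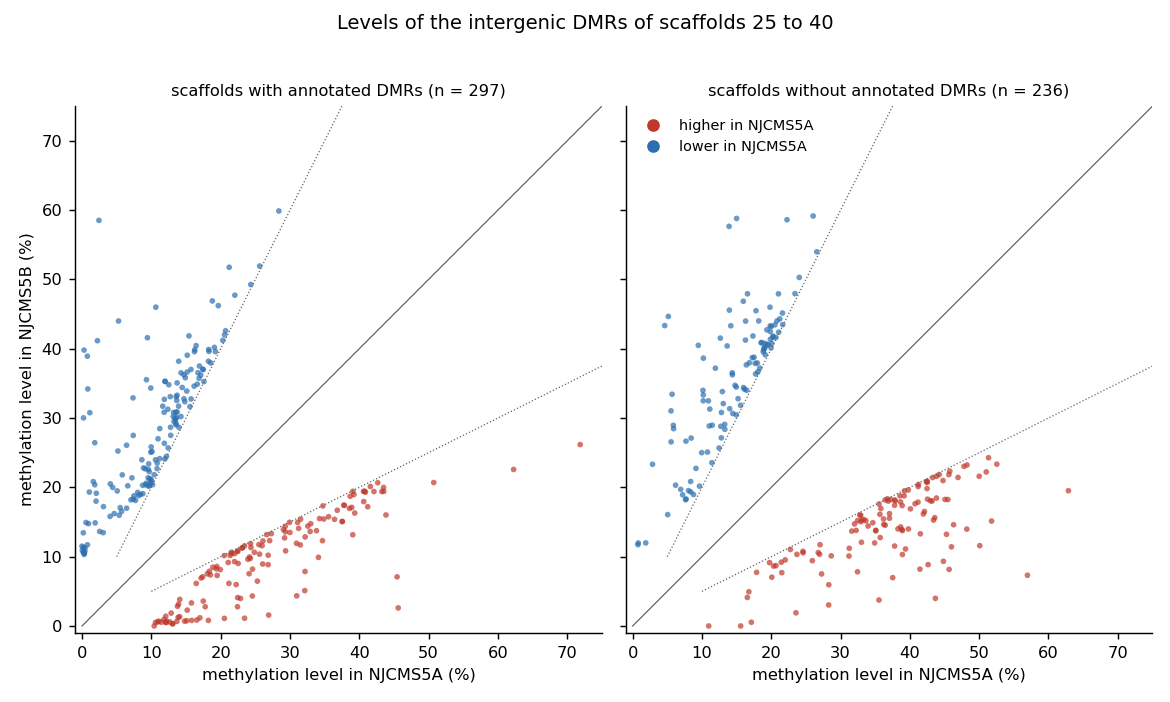
Methylation level (%) in NJCMS5A (x axis) and NJCMS5B (y axis) of each intergenic DMR, for the 6 scaffolds with annotated DMRs (left, n = 297) and the 8 without (right, n = 236). The solid line marks equal levels and the dotted lines a ratio of 2 between the libraries; the points run along the dotted lines, and levels near 0 in either library are frequent only on the left.

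DMRs that were almost unmethylated in 1 library were concentrated on few scaffolds. The lower level was under 2% in 56 of the 533 DMRs (10.5%), against 13.6% of all DMRs and 42.4% of the annotated DMRs of these scaffolds (39 of 92). On the 6 scaffolds that carry annotated DMRs it was 49 of 297 intergenic DMRs (16.5%). Of the 56, NJCMS5A was the low library in 26 and NJCMS5B in 30. They comprised 14 of the 17 DMRs on scaffold_32, 18 of 51 on scaffold_28 and 11 of 67 on scaffold_27, and the remaining 13 were spread over scaffolds 25, 26, 30, 31, 33 and 40. None of the 91 DMRs on scaffolds 34, 35, 37, 38 and 39 was among them. Without scaffold_32, 42 such DMRs were left.

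Scaffold_32 showed this pattern along its length. The first DMR, from 51 to 1927, had 14.8% in NJCMS5A and 0.697% in NJCMS5B. The second, from 4851 to 13841, was the longest of the 533 with 8991 bp and 1935 cytosines, and had 20.5% in NJCMS5A (20.02 to 21.1) and 1.09% in NJCMS5B (0.971 to 1.23). The next 2 were turned round, with 0.185% in NJCMS5A and 13.4% in NJCMS5B from 16352 to 18848, and 1.84% in NJCMS5A and 20.4% in NJCMS5B from 21674 to 23750. In total 9 DMRs were lower and 8 higher in NJCMS5A, with 7 of the near-unmethylated ones in each library. The last 2 of the scaffold were both low in NJCMS5A, with 1.84% against 26.4% in NJCMS5B (266215 to 271084) and 0.294% against 39.8% (272473 to 273044). Depths on scaffold_32 were close between the libraries, with no DMR over 2 times as deep in 1 of them.

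**Figure D3:**
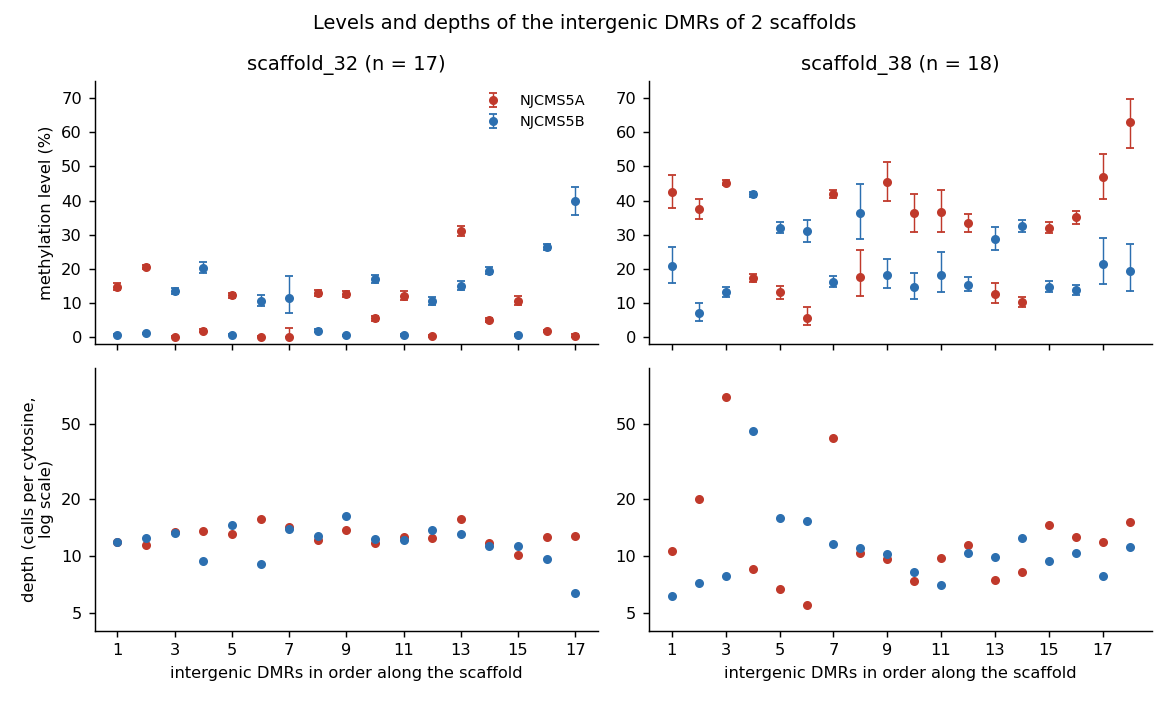
Methylation level (%, upper panels, with 95% Wilson intervals) and depth (calls per cytosine on a log scale, lower panels) of the intergenic DMRs of scaffold_32 (n = 17) and scaffold_38 (n = 18), in their order along the scaffold, in NJCMS5A (red) and NJCMS5B (blue). On scaffold_32 the low library is under 2% in 14 of the 17 DMRs and the depths are alike. On scaffold_38 the low library mostly has over 10% and the first 7 DMRs differ in depth by up to 69.8 against 7.86.

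Among the 199 DMRs that held 50 or more cytosines and reached a depth of 10 in each library, the largest decreases in NJCMS5A were found on scaffold_40 and scaffold_28. On scaffold_40 from 254201 to 255498, the level was 2.22% in NJCMS5A (1.43 to 3.44) and 41.2% in NJCMS5B (39.0 to 43.4). This DMR had 77 cytosines and a depth of 11.1 in NJCMS5A and 24.5 in NJCMS5B (stricter Fisher's exact test, adjusted p = 6.7e-09). On scaffold_28 from 364453 to 366046, the level was 0.766% in NJCMS5A (0.515 to 1.14) and 38.9% in NJCMS5B (37.3 to 40.5) over 237 cytosines, at depths of 13.2 and 14.9 (stricter Fisher's exact test, adjusted p = 3.2e-28). On scaffold_27 from 367311 to 369695, the level was 0.829% in NJCMS5A (0.616 to 1.11) and 34.2% in NJCMS5B (32.7 to 35.7) over 378 cytosines, at depths of 13.7 and 10.6. In the last 2, methylation was all but absent from NJCMS5A although both libraries were well covered. On scaffold_35 the largest decrease lay from 378538 to 380023, with 14.2% in NJCMS5A (12.4 to 16.1) and 43.3% in NJCMS5B (41.5 to 45.1). Its depths were 10.7 in NJCMS5A and 23.1 in NJCMS5B.

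The largest increases under the same limits lay on scaffold_26 and scaffold_35. From 715494 to 716968 on scaffold_26, NJCMS5A had 45.7% (44.4 to 47.0) and NJCMS5B 8.16% (6.90 to 9.63), at depths of 39.7 and 11.0. From 243108 to 243384 on scaffold_35, NJCMS5A had 44.8% (43.2 to 46.5) and NJCMS5B 9.33% (7.73 to 11.2), at depths of 31.95 and 10.4. In both, NJCMS5A was over 3 times as deep, as it was in the largest increase on scaffold_38 (depths of 42.2 and 11.5). This was not so for the largest increases on scaffold_28 and scaffold_31. From 137683 to 139940 on scaffold_28, NJCMS5A had 23.5% (22.5 to 24.4) and NJCMS5B 1.12% (0.889 to 1.40), at depths of 13.7 and 12.6. From 64880 to 66626 on scaffold_31, NJCMS5A had 32.1% (30.4 to 34.0) and NJCMS5B 5.10% (4.14 to 6.26), at depths of 16.2 and 10.6.

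Other scaffolds also had decreases and increases within these limits. The largest decreases were 25.6 points on scaffold_25 (569118 to 572005, with 7.36% in NJCMS5A and 32.9% in NJCMS5B), 24.4 points on scaffold_31 (85580 to 87573, 9.92% and 34.3%), 21.01 points on scaffold_30 (354155 to 354453, 5.55% and 26.6%) and 14.4 points on scaffold_32 (236921 to 239012, 5.08% and 19.5%). The largest increases were 26.6 points on scaffold_25 (747859 to 749782, with 31.0% in NJCMS5A and 4.35% in NJCMS5B), 22.9 points on scaffold_30 (203700 to 205686, 34.9% and 11.98%), 18.8 points on scaffold_40 (144589 to 144887, 34.3% and 15.5%) and 18.5 points on scaffold_27 (414106 to 414432, 29.4% and 10.8%).

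The largest decreases left 18.2% in NJCMS5A against 44.0% in NJCMS5B on scaffold_33 (144657 to 147049), 10.2% against 38.6% on scaffold_34 (159961 to 161060) and 16.3% against 44.0% on scaffold_37 (148019 to 149216). On scaffold_26 the largest decrease had 16.4% in NJCMS5A and 37.7% in NJCMS5B (349177 to 351272). The largest increases reached 43.2% in NJCMS5A against 18.0% in NJCMS5B on scaffold_34 (168461 to 169211), 42.4% against 20.8% on scaffold_33 (289689 to 290885), 42.0% against 16.2% on scaffold_38 (37438 to 38731) and 34.0% against 14.4% on scaffold_39 (301984 to 304278). In these 8 DMRs the lower level was 10.2% or more. Several had uneven depths. The decreases had depths of 12.1 in NJCMS5A and 47.2 in NJCMS5B on scaffold_33, and 14.0 and 26.8 on scaffold_34. The increases had 27.8 and 11.7 on scaffold_34, and 42.2 and 11.5 on scaffold_38. In the others of the 8, depths differed by at most 1.52 times. In none of the 8 did the shallower library have the higher level.

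The extremes over all 533 DMRs, picked out after the values had been seen, rested on few cytosines. The largest decrease was 56.1 points on scaffold_40 (264176 to 265151), with 2.44% in NJCMS5A and 58.5% in NJCMS5B over 15 cytosines. The largest increase was 49.6 points on scaffold_35 (275245 to 275298), with 57.0% in NJCMS5A and 7.32% in NJCMS5B over 13 cytosines at depths of 6.08 and 6.31. The DMR with most cytosines also lay on scaffold_40, from 234883 to 243478, and had 34.1% in NJCMS5A and 9.90% in NJCMS5B over 2020 cytosines.

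DMRs that lay close together mostly differed in direction. Along the scaffolds, the 533 DMRs formed 519 pairs of neighbours, of which 225 had the same direction (43.4%, 39.2 to 47.6), as did 43.2% of all neighbouring DMRs. At a gap of up to 100 bp only 9 of 63 pairs had the same direction (14.3%, 7.70 to 24.97), and at 101 to 1000 bp 40 of 98 (40.8%, 31.6 to 50.7). At 1001 to 5000 bp it was 89 of 174 (51.1%, 43.8 to 58.5) and above 5000 bp 83 of 180 (46.1%, 39.0 to 53.4). For gaps of 0 to 1000 bp together, 49 of 161 pairs had the same direction (30.4%, 23.9 to 37.9), against 35.1% of all neighbouring DMRs at that distance. The 4 pairs that overlapped all had the same direction.

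**Figure D4:**
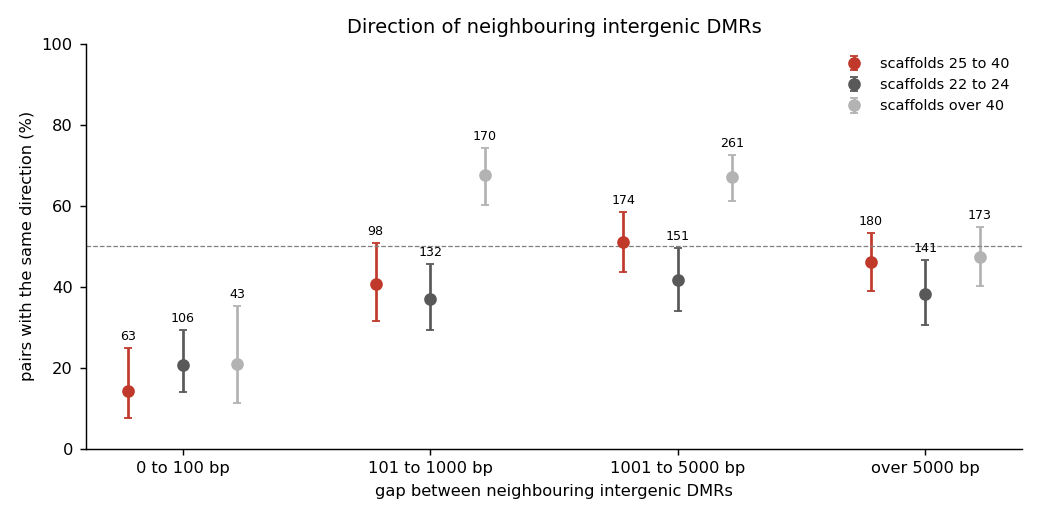
Percentage of neighbouring intergenic DMRs with the same direction (y axis, with 95% Wilson intervals) by the gap between them (x axis), for scaffolds 25 to 40 (red), scaffolds 22 to 24 (dark grey) and scaffolds over 40 (light grey); numbers are pairs and the dashed line is 50%. At 101 to 1000 bp, 40.8% of the pairs on scaffolds 25 to 40 shared a direction, against 67.6% on scaffolds over 40.

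The same shortage of like neighbours within 100 bp was present on the other scaffolds, with 20.8% (14.1 to 29.4) on scaffolds 22 to 24 and 20.9% (11.4 to 35.2) on scaffolds over 40. Between 101 and 1000 bp, the intervals of scaffolds 25 to 40 and scaffolds 22 to 24 overlapped (40.8% and 37.1%, 29.4 to 45.6), whereas 67.6% (60.3 to 74.2) of the pairs on scaffolds over 40 had the same direction. Pairs share DMRs with one another, so their intervals are too narrow. The authors moved a window of 1000 bp in steps of 100 bp, and 287 of the 533 DMRs were longer than 1 window, so adjoining windows of the same direction could have been reported as 1 DMR. The part of this joining in the shares at short gaps was not tested.

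Within the same limits on cytosines and depth, the closest pairs of opposite direction adjoined each other or nearly so. On scaffold_28, the DMR from 129142 to 132940 had 7.05% in NJCMS5A (6.56 to 7.57) and 18.2% in NJCMS5B (17.4 to 19.0), and the next, from 132941 to 134515, had 24.6% (23.5 to 25.7) and 4.33% (3.77 to 4.96). On scaffold_30, the DMR from 224929 to 225661 had 8.78% in NJCMS5A (7.34 to 10.5) and 19.0% in NJCMS5B (16.8 to 21.3), and that from 225662 to 227050 had 21.5% (20.1 to 23.0) and 7.69% (6.66 to 8.86). The first of this pair failed the stricter Fisher's exact test (adjusted p = 0.066). On scaffold_27, 1 base separated the DMR from 61110 to 62906, with 19.95% in NJCMS5A (18.8 to 21.2) and 8.13% in NJCMS5B (7.31 to 9.03), from that at 62908 to 66104, with 10.1% (9.41 to 10.8) and 25.2% (24.1 to 26.2). In all 3 pairs, neighbouring stretches of 733 to 3799 bp had exchanged which library was the more methylated.

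The pair on scaffold_28 belonged to a longer alternation. The following DMR, from 134542 to 137632, was again lower in NJCMS5A, with 4.08% against 20.5% in NJCMS5B. Then came the DMR from 137683 to 139940 with 23.5% in NJCMS5A and 1.12% in NJCMS5B, so that 4 adjoining DMRs in 10.8 kb changed direction at each boundary. Where DMRs kept 1 direction, the runs were short: the longest held 8 DMRs higher in NJCMS5A on scaffold_33 (50287 to 115502), followed by 6 DMRs lower in NJCMS5A on scaffold_26 (181700 to 249976) and 6 on scaffold_40 (195805 to 210312). In the run on scaffold_33 the levels were 35.7% to 51.0% in NJCMS5A and 8.20% to 22.2% in NJCMS5B. On scaffold_32 no run exceeded 2 DMRs.

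On the 6 scaffolds with annotated DMRs, 16 of the 297 intergenic DMRs lay within 1000 bp of one, and 5 of these 16 had its direction. At 1001 to 5000 bp it was 17 of 37 and farther away 128 of 244. The following examples were chosen after their values were seen. On scaffold_27, the promoter DMR of Glyma.U028100, which encodes a MYB domain protein, lies from 335203 to 336302 and was lower in NJCMS5A. The 2 intergenic DMRs that came next were lower too, with 2.54% in NJCMS5A and 13.6% in NJCMS5B at 336508 to 337002, and 9.85% in NJCMS5A and 20.6% in NJCMS5B at 337103 to 338199.

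Elsewhere on scaffold_27, the intergenic DMR from 188174 to 188532 had 22.5% in NJCMS5A and 10.8% in NJCMS5B. It lay 15 bp from an annotated DMR that was lower in NJCMS5A. On scaffold_28, directions also changed between annotated and intergenic DMRs at the places that follow. How often they changed was not compared between the scaffolds. The promoter DMR of Glyma.U029000 (91043 to 93226) had 32.9% in NJCMS5A (31.4 to 34.4) and 1.01% in NJCMS5B (0.723 to 1.42), and the intergenic DMR that ended 8 bp before it (89242 to 91034) had 13.6% in NJCMS5A and 33.1% in NJCMS5B. The promoter DMR of Glyma.U029600 (171943 to 174197) had 16.2% in NJCMS5A (14.7 to 17.8) and 0.733% in NJCMS5B (0.464 to 1.16), and the intergenic DMR before it (170001 to 171640) had 0.212% in NJCMS5A and 30.02% in NJCMS5B. At Glyma.U028800 and Glyma.U028900, the annotated DMR from 79042 to 81339 had 0.602% in NJCMS5A and 14.0% in NJCMS5B, and the intergenic DMR at 81342 to 83225 had 24.1% in NJCMS5A and 7.54% in NJCMS5B. The same change was found on scaffold_32 at Glyma.U034500, where the annotated DMR from 195720 to 199514 had 1.23% in NJCMS5A and 21.4% in NJCMS5B, and the intergenic DMR ending just before it (194519 to 195703) had 31.1% in NJCMS5A and 14.9% in NJCMS5B. The distance of these intergenic DMRs from the genes themselves was not analysed here.

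Depth moved with direction on part of the scaffolds. Depth differed by more than 2 times between the libraries in 76 of the 533 DMRs (14.3%), against 11.4% of all DMRs. In 58 of these 76 the deeper library had the higher level (76.3%, 65.6 to 84.5), as in 72.6% of all DMRs with such depths. Of the 42 that were deeper in NJCMS5A, 32 were higher in NJCMS5A, and of the 34 that were deeper in NJCMS5B, 26 were lower in NJCMS5A. Of the 457 DMRs with more even depths, the deeper library had the higher level in 217 (47.5%). This share was 60.0% on the scaffolds without annotated DMRs (102 of 170) and 40.1% on those with them (115 of 287). Of the 457, 236 were lower and 221 higher in NJCMS5A. Both directions were thus about equally frequent among DMRs of even depth as well.

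The uneven depths lay almost wholly on the scaffolds without annotated DMRs, which held 66 of the 76. There the deeper library was the more methylated in 53 of 66 (80.3%, 69.2 to 88.1), and on the scaffolds with annotated DMRs in 5 of 10. By scaffold the count was 14 of 15 on scaffold_35, 9 of 12 on scaffold_33, 8 of 12 on scaffold_26, 7 of 8 on scaffold_34, 6 of 6 on scaffold_38 and 4 of 8 on scaffold_30. Across the DMRs, Spearman's rho between the depths of the libraries was 0.330 on the scaffolds with annotated DMRs (n = 297) and -0.149 on those without (n = 236), as a description of DMRs that share libraries and scaffolds. The DMRs of the chromosomes gave 0.695, and the intergenic DMRs gave 0.317 on scaffold_21, 0.242 on scaffolds 22 to 24 and 0.057 on scaffolds over 40. On scaffolds over 40, the deeper library was the more methylated in 206 of the 261 intergenic DMRs with uneven depths (78.9%). By the same count it was 2 of 8 on scaffold_21, 5 of 14 on scaffolds 22 to 24 and 1 of 12 on the chromosomes. What unequal depth contributed to the level differences was not tested.

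**Figure D5:**
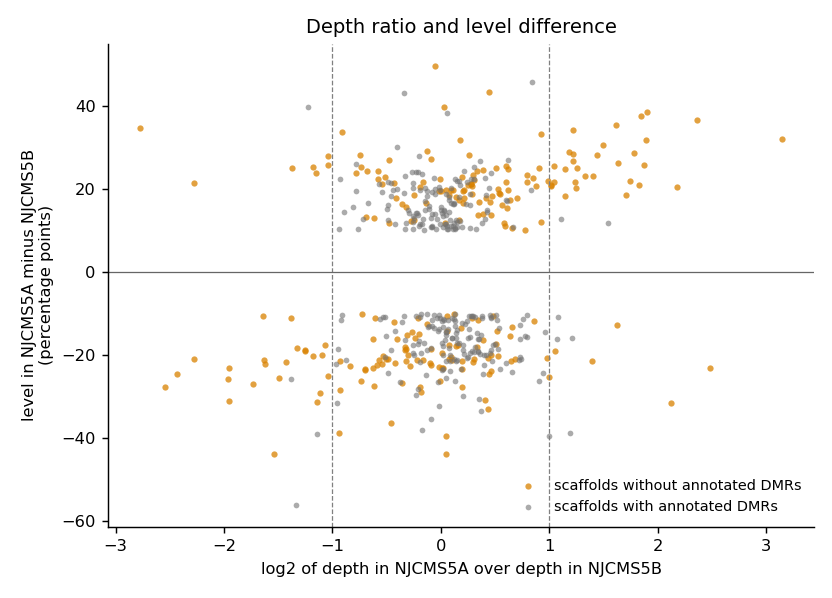
Level in NJCMS5A minus level in NJCMS5B (percentage points, y axis) against the log2 ratio of the depth in NJCMS5A to that in NJCMS5B (x axis) for each intergenic DMR, on scaffolds without (orange) and with (grey) annotated DMRs; dashed lines mark a depth ratio of 2 either way. Of the 42 DMRs right of the right line 32 lie above 0, and of the 34 left of the left line 26 lie below 0.

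Scaffold_38 showed how abruptly depth could change. From 10187 to 12686, depth was 69.8 in NJCMS5A and 7.86 in NJCMS5B, and the level was 45.3% in NJCMS5A (44.6 to 46.0) and 13.2% in NJCMS5B (11.8 to 14.8). The next DMR, from 13246 to 15882, had a depth of 8.51 in NJCMS5A and 46.1 in NJCMS5B with 17.4% methylation in NJCMS5A (16.2 to 18.6) and 41.8% in NJCMS5B (41.2 to 42.5). The first 3 DMRs of the scaffold were deeper and more methylated in NJCMS5A and the following 3 deeper and more methylated in NJCMS5B, within 20.1 kb. Similar depths were found on scaffold_34, where the DMR at 87256 to 89536 had a depth of 45.1 in NJCMS5A and 9.93 in NJCMS5B with levels of 39.2% and 18.8%, and that at 104045 to 105041 a depth of 6.28 and 30.5 with levels of 20.7% and 41.6%. On scaffold_26 the DMR at 594991 to 595693 had a depth of 8.71 in NJCMS5A and 50.9 in NJCMS5B, with a level of 5.69% in NJCMS5A and 33.4% in NJCMS5B. These DMRs were chosen after their values were seen.

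Not every uneven DMR followed this direction. On scaffold_35 the exception of 15 lay at 296174 to 297152, where depth was 6.67 in NJCMS5A and 45.5 in NJCMS5B and the level was 46.0% in NJCMS5A and 11.4% in NJCMS5B, over 15 cytosines. On scaffold_40 both uneven DMRs, among them that at 254201 to 255498 given above, were deeper and more methylated in NJCMS5B. Scaffold_25 and scaffold_32 had no uneven DMR. On scaffold_25 the depth ranged from 5.33 to 13.9 in NJCMS5A and from 5.92 to 16.7 in NJCMS5B.

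Sums of calls over each scaffold give the net result of both directions. On scaffold_39 the level over all its 6 DMRs was 33.7% in NJCMS5A (33.1 to 34.4) and 18.5% in NJCMS5B (17.9 to 19.0). It was also higher in NJCMS5A on scaffold_38 (36.8% and 32.5% in NJCMS5B), scaffold_34 (34.3% and 30.2%), scaffold_32 (10.95% and 8.08%), scaffold_25 (25.2% and 23.1%) and scaffold_28 (13.8% and 12.8%). It was lower in NJCMS5A on scaffold_37 (29.2% and 35.3% in NJCMS5B), scaffold_40 (20.7% and 24.8%), scaffold_35 (31.6% and 34.9%), scaffold_26 (26.9% and 29.3%) and scaffold_33 (30.1% and 31.6%). On scaffold_27, scaffold_30 and scaffold_31 the sums were close, with 14.0% and 14.3%, 17.3% and 17.6%, and 15.8% and 15.8% in NJCMS5A and NJCMS5B. A sum weights each DMR by its calls, so that single long or deep DMRs carry it: on scaffold_38 the median depth in NJCMS5A was 10.5, while the DMR at 10187 to 12686 had 69.8. With each DMR weighted equally, the order turned on 6 of the 14 scaffolds. The mean level was then lower in NJCMS5A on scaffold_25 (24.3% and 25.8% in NJCMS5B), scaffold_28 (13.3% and 14.0%), scaffold_31 (17.1% and 17.6%) and scaffold_32 (8.37% and 11.2%), and higher in NJCMS5A on scaffold_33 (29.5% and 24.6%) and scaffold_35 (31.3% and 29.4%). On scaffold_39 it was 28.04% in NJCMS5A and 23.5% in NJCMS5B.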

How the data were processed

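Genomic DNA of pooled flower buds was sequenced after bisulfite treatment, with 1 library of NJCMS5A and 1 of NJCMS5B. The authors mapped reads to the Williams 82 genome with Bismark (version 0.12.5), kept unique alignments, and called DMRs with swDMR (Fisher test, FDR of at most 0.05, windows of 1000 bp, steps of 100 bp). In the deposited table, the methylation level of a DMR is a fraction (printed here as percent), not corrected for unconverted cytosines, the depth is the coverage signal as a mean over cytosines, not normalized between libraries, and the number of cytosines is a count. Deposited p-values, ratios and differences of levels are the authors' own comparisons, as are the GO and KEGG tables, and none was used. Coordinates are those of the deposited files.

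Methylated and unmethylated calls were recovered as level times depth times cytosines, which was a whole number within 1e-06 in all 3527 DMRs. A lower level in NJCMS5A was called hypo-methylation. Calls were compared with Fisher's exact test (two-sided, Benjamini-Hochberg adjustment over 3527 DMRs, threshold 0.05). The computation was tested on simulated data. Python 3.11.15, numpy 2.4.6, pandas 2.3.3, scipy 1.17.1 and matplotlib 3.10.9 were used.

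The DMRs and the rules were chosen with earlier results of these data known. Named were, on each scaffold, the largest decrease and increase among DMRs that held 50 or more cytosines and reached a depth of 10 in each library, the 3 closest pairs of opposite direction among them, and the longest DMR. Within these limits scaffold_37 had no increase, and scaffold_38 and scaffold_39 had no decrease. The scaffold_27 region that the study sequenced from clones (331871 to 332336) overlapped 0 of the 533 DMRs. Other DMRs named were chosen after their values were seen.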

Additional observations from a re-analysis of the deposited data

How the results depend on the processing

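With 10 or more calls per cytosine required in each library, 222 DMRs were left, and with a difference of at least 20 points 232. All of these passed the test. The median difference was 16.3 points with the depth limit, 18.2 with at least 50 cytosines and 23.5 among those of at least 20 points. Of 52 scaffold shares of hypo-methylated DMRs recomputed under alternatives, 48 stayed within the interval of the full share. In 7 of the 52, on scaffolds 27, 28, 30, 32 and 35, the more frequent direction turned. With at least 20 points the share was 75% on scaffold_28 (8 DMRs) and 100% on scaffold_32 (2), and with the depth limit 75% on scaffold_35 (12) and 100% on scaffold_37 (4). As unweighted means the levels of the 533 DMRs were 21.5% in NJCMS5A and 21.8% in NJCMS5B, so that the small gap between the sums reversed, and with depths of at most 50 the sum was 20.7% in NJCMS5A. Neighbours of the same direction were 32.1% at gaps of at most 1000 bp with overlapping pairs, and 38.9% with the depth limit and 50 or more cytosines.

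Alternatives added after seeing the data gave 23.3% for neighbours 0 to 1000 bp apart with at least 50 cytosines. The deeper library was the more methylated in 64.7% at depths over 1.5 times apart and in 88.9% with at least 50 cytosines. Leaving out each scaffold in turn gave 50% to 52.0% hypo-methylated DMRs, 28.6% to 32.4% for neighbours 0 to 1000 bp apart and 72.1% to 79.4% for the deeper library. No paired analysis was possible because there was 1 library per line and no replicate number.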
